A study of Homo sapiens with 6 samples.

Results

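The 7 genes described here are the SOX B group of transcription factor genes and the non-coding genes beside them, namely SOX2, SOX2-OT, SOX1, SOX3, SOX14, SOX21 and SOX21-AS1. They were taken by symbol from a table of 59653 gene symbols, and all 7 were present in it. The libraries came from PA1, an established human ovarian teratocarcinoma cell line labelled as wild type in genotype, which expresses pluripotency genes. The control group was PA1 transfected with a negative control small interfering RNA (siRNA), and the other group was PA1 transfected with siRNA against SOX2 (called knockdown libraries below); a pair of SOX2 siRNAs is named, without saying whether they were pooled. Both groups spent 24 h in adherent culture after transfection and then 72 h on poly-HEMA, a coating that keeps cells from attaching, so every value describes cells in suspension. Each group had 3 libraries, numbered 1 to 3. The labels name no separate cultures behind these numbers, so p-values measure the spread between these libraries, which may be technical.

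SOX proteins bind DNA through a shared HMG box. Within the B group, SOX1, SOX2 and SOX3 (subgroup B1) mainly activate transcription, keep stem and neural progenitor cells undifferentiated and can often replace each other, while SOX14 and SOX21 (subgroup B2) mainly repress it and oppose B1 factors. SOX2 also works with POU5F1 (OCT4) to hold pluripotent cells in their state. The comparisons therefore ask how much of each B1 gene was present once SOX2 was reduced, and whether SOX21 and the RNA transcribed from beside it changed together with SOX2.

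The 5 coding genes are alike enough for their shared sequence to bear on the counts. Each has 1 exon and 1 transcript in GENCODE 29 (GRCh38). The 60-base coding stretch in which the other 4 genes most resemble SOX2 is printed below from the GENCODE 29 transcripts, 5′ to 3′ on the coding strand, because it shows how nearly reads and siRNA target sites can coincide between members. Capitals mark bases that differ from SOX2. The stretches lie within exons and in coding sequence at chr3:181712523-181712582 on the plus strand (SOX2), chr13:112067851-112067910 on the plus strand (SOX1), chrX:140504545-140504604 on the minus strand (SOX3), chr13:94711927-94711986 on the minus strand (SOX21) and chr3:137764848-137764907 on the plus strand (SOX14).
SOX2: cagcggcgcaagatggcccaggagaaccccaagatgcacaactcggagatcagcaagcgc
SOX1: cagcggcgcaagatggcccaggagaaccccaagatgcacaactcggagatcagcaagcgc
SOX3: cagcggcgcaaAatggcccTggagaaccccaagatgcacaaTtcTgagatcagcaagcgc
SOX21: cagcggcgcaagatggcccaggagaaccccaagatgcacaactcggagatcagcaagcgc
SOX14: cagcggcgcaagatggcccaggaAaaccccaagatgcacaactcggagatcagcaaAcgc

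SOX1 and SOX21 matched SOX2 at all 60 bases, SOX14 at 58 and SOX3 at 56. The longest run of coding bases shared without a mismatch was 89 between SOX2 and SOX1, 60 between SOX2 and SOX21, 32 between SOX2 and SOX14 and 23 between SOX2 and SOX3. Read length, the assignment of reads that fit several genes, and the siRNA sequences are not given in the sources used here. The part that shared reads or shared siRNA sites may have in the members' counts was not tested. SOX1 had 0 counts in libraries where SOX2 had up to 8093. Both values depend on how reads that fit both genes were assigned.

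Total counts were between 25152313 and 32753184 per library, and 3 counts, taken as the least that can be told from none, corresponded to between 0.0909 and 0.120 CPM, the unit of counts after scaling for library size. Such limits cover counting error only, because reads copied by PCR are not independent molecules. Of the 10 pluripotent cell markers, 8 were tested, with POU5F1 at 301 CPM and LIN28A at 706 CPM in control libraries, while TDGF1 and ZFP42 stayed under 1 CPM. After knockdown 4 of the 8 tested were called higher and none lower, where 14.8% of all tested genes were called higher and 13.4% lower. The other 4 were not called, namely SALL4, DPPA4, L1TD1 and TERF1, with log2 fold changes of -0.07, -0.37, -0.14 and -0.11. LIN28A rose to 1148 CPM and LIN28B from 239 to 359 CPM, the largest rises in the list. The sum of the list went from between 1545 and 1579.98 CPM to between 2169.98 and 2199.9 CPM. Summed markers of blood cells stayed between 0.247 and 0.830 CPM. Markers of ovarian epithelium or granulosa cells summed to between 5.15 and 7.58 CPM in control libraries. After knockdown their sum was between 4.67 and 6.76 CPM, and none of the 3 tested was called. Of the 5 fibroblast markers, COL1A1 and PDGFRB rose and none fell, and their sum went from between 300.2 and 350.02 CPM to between 465 and 512 CPM, with DCN near 0 in both groups. The 3 endothelial markers all fell, from a sum between 74.5 and 77.5 CPM to one between 49.9 and 51.9 CPM. The part of these shifts in the changes below was not tested.

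The SOX B genes that could be tested were lower after knockdown, and no member was higher. By edgeR's quasi-likelihood test with Benjamini-Hochberg adjustment over 17592 genes, 5 members had an adjusted p under 0.05, all in the lower direction, where 13.4% of all tested genes were called lower. SOX2, SOX2-OT, SOX21 and SOX21-AS1 fell by at least 2-fold, against 1.59% of tested genes. The groups did not overlap in CPM for these 5, against 20.3% of tested genes with every knockdown library below every control. SOX1 and SOX14 had too few counts to be tested. SOX2 was the siRNA target, so its place among the 5 was set by the design. SOX21-AS1 passed the filter on low counts through its control libraries, so for it the filter itself favours a difference. The values of SOX21-AS1 are therefore given as a description. The call of SOX3 was lost under 6 of 13 alternatives. The members were chosen with earlier results of these data known, so the shares of all tested genes serve as a description. In bulk RNA, fewer cells that express a gene and less RNA per cell cannot be told apart.

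**Figure D1:**
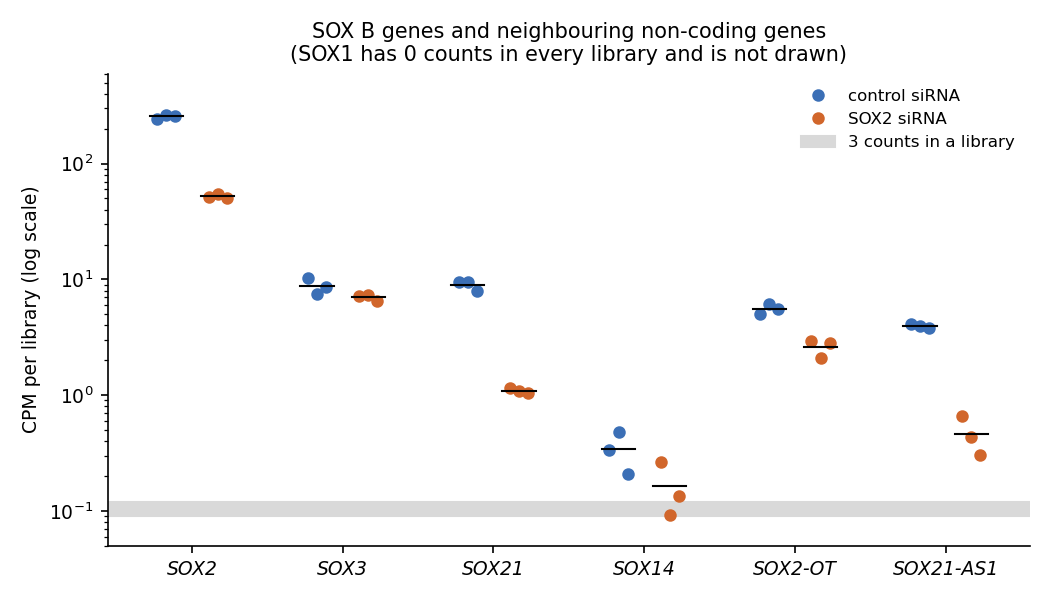
Expression of 6 members in each library, in CPM on a log scale, with blue points for control siRNA, orange points for SOX2 siRNA and black bars for group means (3 libraries each); the grey band is the value of 3 counts. SOX2 stands far above the others in both groups, SOX21 and SOX21-AS1 drop by a similar distance, SOX3 shifts little, and SOX14 lies close to the grey band.

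SOX2 (ENSG00000181449.3; chr3:181711924-181714436, plus strand) was the gene targeted and was read first. It had 8093, 6647 and 7396 counts in the control and 1564, 1776 and 1513 counts in the knockdown libraries, in replicate order. In CPM these were 245, 265 and 256 against 51.8, 54.9 and 50.6, so the groups lay far apart and each was tight. The level that remained was 20.5% of control. Its log2 fold change was -2.28 (adjusted p = 5.97e-16 by edgeR; SE 0.0437).

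SOX1 (ENSG00000182968.4; chr13:112067647-112070488, plus strand), the B1 gene best known from early neural tissue, had 0 counts in all 6 libraries. SOX1-OT, the non-coding gene that spans it, was also at 0 in all 6. A count of 0 allows a SOX1 level of up to between 0.0909 and 0.120 CPM in a library. Per kilobase (kb) of transcript this limit lay between 0.0199 and 0.0263 CPM per kb. SOX1 was thus not detectable in either group at this depth.

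SOX3 (ENSG00000134595.8; chrX:140502985-140505116, minus strand) is the B1 gene on the X chromosome, active in neural progenitors and in pituitary development. Its counts were 337, 188 and 247 in control and 215, 237 and 196 in knockdown libraries. In CPM the control libraries held 10.2, 7.50 and 8.54 and the knockdown libraries 7.12, 7.33 and 6.56. The groups did not overlap, but the lowest control library lay only just above the highest knockdown library, and control replicate 1 stood above the other libraries. The mean went from 8.75 ± 1.37 to 7.004 ± 0.398 CPM (SD, n = 3), a log2 fold change of -0.33 (adjusted p = 0.0331 by edgeR; SE 0.109). This call did not survive DESeq2's Wald test (adjusted p = 0.0917) or limma-voom (adjusted p = 0.0587). Leaving out control replicate 1 gave -0.20 (edgeR adjusted p = 0.210), and the call was also lost without control replicate 3, knockdown replicate 2 or knockdown replicate 3. No setting gave a rise of SOX3.

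Levels of different genes were compared per kb of RefSeq transcript. In control libraries SOX2 was at 101.7 ± 4.005 CPM per kb and SOX3 at 4.20 ± 0.655 (SD, n = 3), so SOX2 was 24.7 ± 4.71 times SOX3. After knockdown the values were 20.9 ± 0.881 for SOX2 and 3.36 ± 0.191 for SOX3, and SOX2 was still 6.22 ± 0.185 times SOX3. Even in the knockdown library where they were closest, the ratio was 6.04. SOX2 therefore remained the most abundant B1 transcript in each of the 6 libraries.

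The B1 transcripts together, SOX1 plus SOX2 plus SOX3, were summed per library as a description. The sum was 102.5, 109 and 106 CPM per kb in the controls, in replicate order, and 24.04, 25.4 and 23.3 in the knockdown. This left 22.9% of the control sum, little more than the 20.5% that remained of SOX2 itself. SOX2 fell by 80.8 CPM per kb between the group means, and SOX3 changed by -0.84 CPM per kb, in the same direction. The share of SOX3 in the sum went from 3.98% ± 0.747 to 13.9% ± 0.354 (SD, n = 3), a larger share of a smaller pool. Measured per kb of coding sequence instead, the SOX3 share was 2.39% ± 0.456 and 8.67% ± 0.235, and 22.0% of the sum remained.

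**Figure D2:**
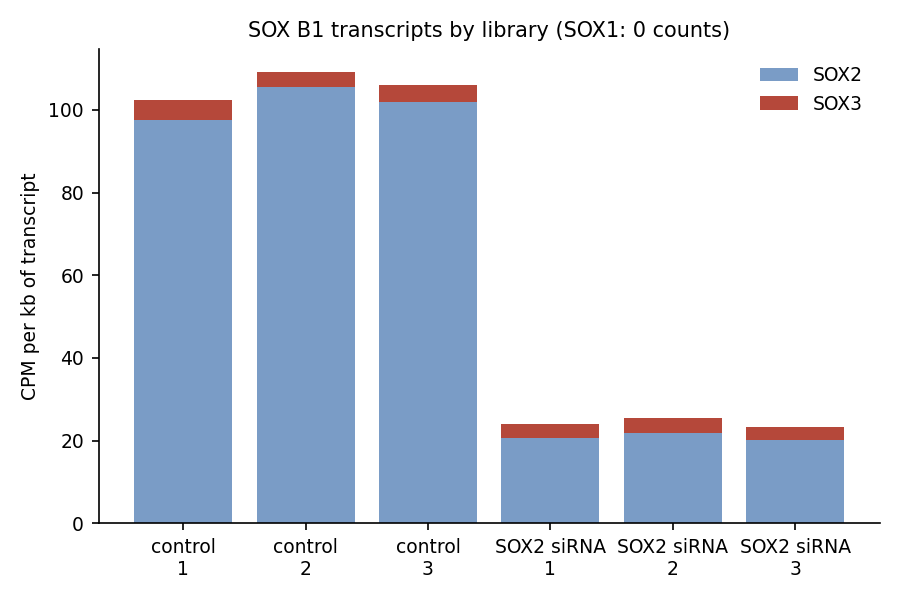
Summed SOX B1 transcripts in each library, in CPM per kb of transcript, with SOX2 in blue and SOX3 in red on top; SOX1 adds nothing because it had 0 counts. The bars of the 3 knockdown libraries reach between 23.3 and 25.4 where the control bars reach between 102.5 and 109. The red part is small throughout, between 3.60 and 4.90 in control and between 3.15 and 3.52 in knockdown libraries.

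SOX21 (ENSG00000125285.5; chr13:94709622-94712399, minus strand), a B2 repressor that promotes exit from the progenitor state, had 314, 237 and 228 counts in control and 35, 35 and 31 in knockdown libraries. These corresponded to 9.51, 9.46 and 7.89 CPM against 1.16, 1.08 and 1.04 CPM. The groups were far apart and the knockdown libraries nearly equal. On average 12.2% of the control level remained, with a log2 fold change of -3.03 (adjusted p = 2.31e-11 by edgeR; SE 0.138). Per kb of transcript SOX21 was near SOX3 in control libraries, at 3.06 ± 0.316 against 4.20 ± 0.655 CPM per kb, while after knockdown it was at 0.374 ± 0.0211 against 3.36 ± 0.191 (SD, n = 3).

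SOX21-AS1 (ENSG00000227640.2; chr13:94712716-94716246, plus strand) is a long non-coding RNA gene transcribed away from SOX21. It had 135, 99 and 110 counts in control and 20, 14 and 9 in knockdown libraries. In CPM the control libraries held 4.09, 3.95 and 3.80 and the knockdown libraries 0.663, 0.433 and 0.301, again without overlap. On average 11.8% of control remained, with a log2 fold change of -3.07 (SE 0.226). SOX21-AS1 passed the filter on low counts through its control libraries, so these values are given as a description. Despite its name it shares no exon base with SOX21 in GENCODE 29. The annotation behind the deposited counts is not given in the sources used here, and the part of strand in the counts of the pair was not tested.

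The starts of SOX21 and SOX21-AS1 face away from each other across a gap of 170 bases in RefSeq (GRCh38.p14). This gap, at chr13:94712546-94712715, is shown as the minus strand reads it, toward SOX21, because 2 members that fell together start on its sides.
gap between SOX21-AS1 and SOX21: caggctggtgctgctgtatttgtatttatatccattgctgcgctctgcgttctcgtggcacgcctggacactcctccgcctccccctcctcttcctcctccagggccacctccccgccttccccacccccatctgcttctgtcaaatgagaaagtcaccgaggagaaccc

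The windows from 250 bases before to 50 after each RefSeq start were searched on both strands for CATTGT and CTTTGT, which are common forms of the SOX binding motif, and for the POU octamer ATGCAAAT. No matches in the members' windows overlapped. Of 35116 such windows in RefSeq, 10.8% held CATTGT, 16.1% CTTTGT, 24.5% either of these and 1.77% the octamer. Neither the SOX21 nor the SOX21-AS1 window held any of them, so the gap is printed without capitals. These 2 windows share most of their bases, so they are not separate observations. The SOX1 and SOX3 windows held none of the motifs either. The SOX2 window held 1 CTTTGT on the minus strand, at position -220 from the start. Of the 3 SOX2-OT windows, 1 held CTTTGT and 1 held CATTGT. A match or its absence describes these letters in these windows and nothing about binding.

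The proportion of SOX21-AS1 to SOX21 overlapped between the groups. SOX21-AS1 had 43.0, 41.8 and 48.2 counts per 100 SOX21 counts in the controls, in replicate order, and 57.1, 40.0 and 29.03 in the knockdown. The means were 44.3 ± 3.44 and 42.1 ± 14.2 (SD, n = 3), and the knockdown libraries lay on both sides of the control values. The log2 ratio differed by -0.10 between groups (exact two-sided permutation p = 0.7, and 0.7 after Benjamini-Hochberg adjustment over 4 ratios). With as few as 9 counts in a library, a modest difference between the pair was not detectable at this depth. Without knockdown replicate 3, the library with 9 counts, the log2 difference was 0.13, and without knockdown replicate 1 it was -0.34.

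SOX21 fell further than SOX2. It had 3.88, 3.57 and 3.08 counts per 100 SOX2 counts in control libraries and 2.24, 1.97 and 2.05 in knockdown libraries. The groups did not overlap, and the ratio fell by 0.73 on the log2 scale (exact two-sided permutation p = 0.1, adjusted p = 0.133; 3 against 3 libraries cannot give less than 0.1). The SOX3 ratio moved the other way, from 3.44 ± 0.674 to 13.3 ± 0.396 counts per 100 SOX2 counts (SD, n = 3; log2 difference 1.97, exact permutation p = 0.1, adjusted p = 0.133), with SOX2 counts far lower and SOX3 counts little changed. SOX2 was the siRNA target, so a ratio to it rises for most genes by design. Only 1.59% of tested genes were called lower by at least 2-fold. The rise of the SOX3 ratio is therefore a description.

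**Figure D3:**
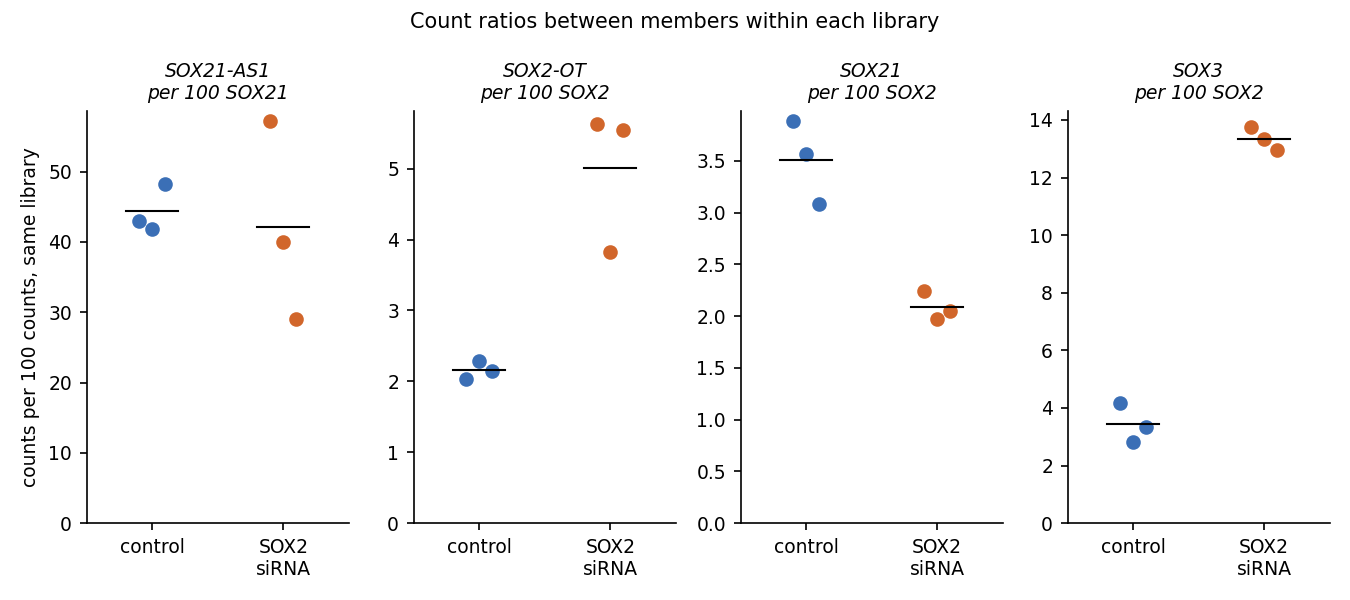
Counts of 1 member per 100 counts of another in the same library, 1 panel per pair, with blue points for control and orange points for knockdown libraries and black bars for means of 3 libraries; each axis starts at 0. SOX21-AS1 per SOX21 overlaps between groups, with knockdown libraries from 29.03 to 57.1, while the other 3 ratios separate, SOX21 per SOX2 downward and the SOX2-OT and SOX3 ratios upward.

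SOX2-OT (ENSG00000242808.8; chr3:180989762-181836880, plus strand) is a long non-coding RNA gene with SOX2 inside its span on the same strand and in none of its exons. It has 90 annotated transcripts in GENCODE 29, so no level per length is given. Its counts were 165, 152 and 159 in control and 88, 68 and 84 in knockdown libraries, or 4.999, 6.07 and 5.50 against 2.92, 2.10 and 2.81 CPM. The groups were separate, and 47.3% of control remained, with a log2 fold change of -1.08 (adjusted p = 2.51e-05 by edgeR; SE 0.147). Its fall was smaller than that of SOX2, with 2.16 ± 0.124 counts per 100 SOX2 counts in control and 5.002 ± 1.02 in knockdown libraries (SD, n = 3; log2 difference 1.20, exact two-sided permutation p = 0.1, adjusted p = 0.133). Because SOX2 was the siRNA target, a rise of this ratio was largely set by the design, and it is given as a description. Exons of SOX2-OT overlap exons of DNAJC19 on the opposite strand, and whether counting used strand is not stated. DNAJC19 was at 29.8 ± 0.610 and 29.05 ± 1.002 CPM (SD, n = 3), and its part in the SOX2-OT counts was not tested.

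SOX14 (ENSG00000168875.2; chr3:137764284-137766338, plus strand), the other B2 gene, known from interneurons of the brain, was barely detected. It had 11, 12 and 6 counts in control and 8, 3 and 4 in knockdown libraries, and the groups overlapped. Summed over the group, 29 counts gave 0.333 CPM (95% exact Poisson interval 0.223 to 0.479) in control and 15 counts gave 0.162 CPM (0.0909 to 0.268) after knockdown, intervals that cover counting error only. The log2 ratio of the mean CPM was -1.05. When low genes were kept, edgeR gave an adjusted p of 0.221, and in the 4 fits without 1 library where SOX14 passed the filter it gave between 0.0658 and 0.394, so a change of SOX14 was not detectable at this depth.

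Ordered per kb of transcript, control libraries ran SOX2, SOX3, SOX21, SOX21-AS1 and SOX14, with means of 101.7, 4.20, 3.06, 1.20 and 0.168 CPM per kb, and SOX1 under its limit. SOX3 was 1.11 to 1.52 times SOX21 in the control libraries, so this pair was the closest in level. After knockdown the order of the means was the same, at 20.9, 3.36, 0.374, 0.142 and 0.0811 CPM per kb. SOX3 was then 8.61 to 9.50 times SOX21. The spreads of SOX21-AS1 and SOX14 then overlapped, at 0.142 ± 0.0556 and 0.0811 ± 0.0445 CPM per kb (SD, n = 3). Within each knockdown library SOX21-AS1 was the higher, at 0.202, 0.132 and 0.0916 against 0.131, 0.0459 and 0.0663 CPM per kb, on few counts. This difference was not tested.

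The coding genes nearest to 4 of the SOX genes were examined next. The 3 nearest coding genes on each side of SOX2, SOX1, SOX14 and SOX21 in RefSeq gave 24 neighbours, of which 23 were in the table and 18 were tested. Of these, 3 fell, 5 rose and 10 were not called, against 28.2% of all tested genes called in either direction. SOX2 lies in a gene desert, with its nearest coding neighbour DNAJC19 at 722 kb. FXR1, an RNA-binding protein gene, had a log2 fold change of 0.13 (edgeR adjusted p = 0.0104) and ATP11B, a flippase gene, one of 0.22 (0.00106), while MCCC1, a gene of leucine breakdown, had -0.31 (0.00272). Near SOX21, GPR180 at 75.0 kb and TGDS at 113 kb were not called (log2 fold changes -0.08 and 0.03). The ABC transporter gene ABCC4 had -0.21 (edgeR adjusted p = 0.00489), the claudin gene CLDN10 -0.21 (0.00438) and DZIP1, a cilium gene, 0.11 (0.0311). The largest log2 fold change among the called neighbours was that of SLC35G2 near SOX14, at 0.52 (edgeR adjusted p = 0.00120). ATP11A near SOX1 had 0.28 (1.10e-05).

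**Figure D4:**
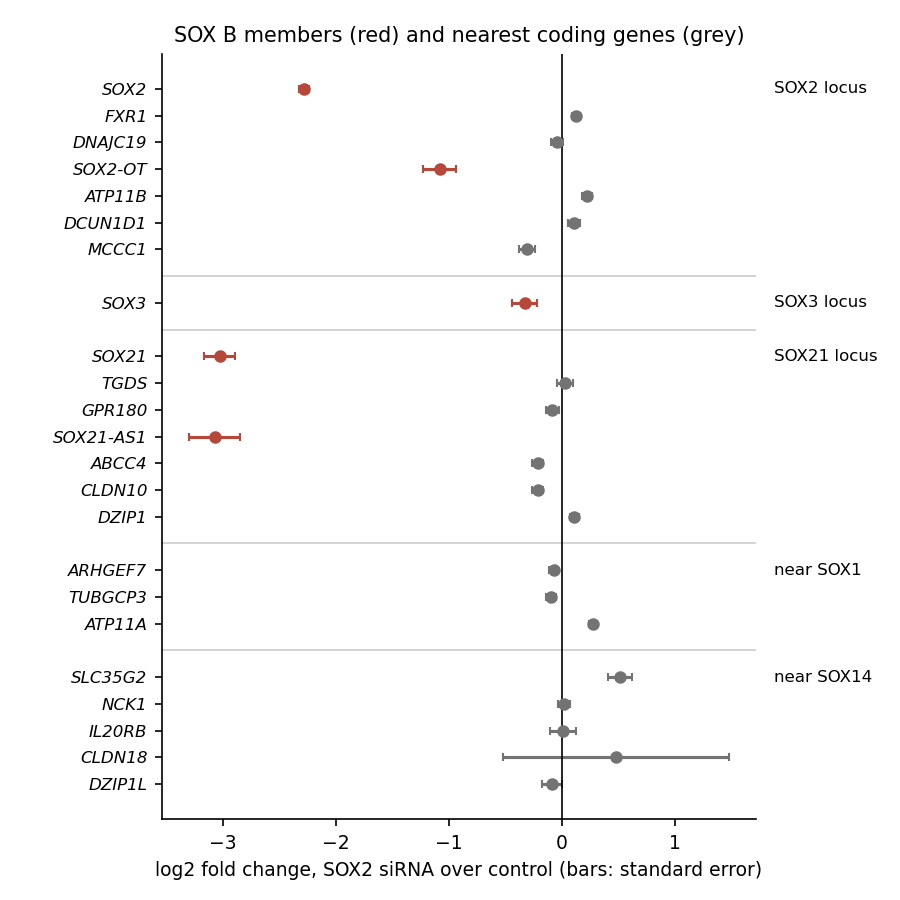
Log2 fold change of SOX2 siRNA over control, with standard errors, for the tested members (red) and the tested nearest coding genes of SOX2, SOX21, SOX1 and SOX14 (grey), grouped by SOX locus. The red points of SOX2, SOX2-OT, SOX21 and SOX21-AS1 lie at -1.08 or lower while the grey points lie between -0.31 and 0.52, that of CLDN18 with a wide error. The red point of SOX3, at -0.33, lies beside the lowest grey point.

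The other SOX genes, listed from general knowledge of the family, gave 10 tested of 14. Of these, 6 rose, 1 fell and 3 were not called, where 14.8% of all tested genes were called higher and 13.4% lower, with a median log2 fold change of 0.30 where that of all tested genes was -0.00085. SOX13, a D group gene, fell from 82.4 ± 3.83 to 44.3 ± 0.210 CPM (± SD, n = 3, with a log2 fold change -0.89, edgeR adjusted p = 8.21e-11). SOX10, a neural crest factor, rose from 3.13 ± 0.431 to 9.21 ± 0.783 CPM (log2 fold change 1.54, edgeR adjusted p = 2.31e-08). SOX9, a factor of cartilage and of several progenitors, rose by 0.53 and SOX4, a C group gene, by 0.31 on the log2 scale (edgeR adjusted p = 3.60e-08 and 8.88e-06).

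Factors known to work beside SOX2 on DNA split in direction. Of 16 listed, 13 were tested, 4 fell, 3 rose and 6 were not called (over all tested genes 13.4% were lower and 14.8% higher), with a median log2 fold change of -0.07. PRDM14, a regulator of human pluripotency, fell from 36.8 ± 1.91 to 8.71 ± 0.333 CPM (± SD, n = 3, with a log2 fold change -2.08, edgeR adjusted p = 1.32e-13). POU3F2 (BRN2), a partner of SOX2 in neural cells, rose from 10.1 ± 0.590 to 29.4 ± 2.56 CPM (log2 fold change 1.55, edgeR adjusted p = 5.41e-11). CTNNB1, the gene of beta-catenin, rose by 0.31 on the log2 scale (edgeR adjusted p = 3.36e-06). NANOG, counted among those that fell, was at 0.820 ± 0.130 and 0.216 ± 0.0425 CPM (SD, n = 3) and passed the filter on low counts only through its control libraries, so its values are a description. POU5F1 had a log2 fold change of 0.17 (edgeR adjusted p = 0.00798). NANOG and POU5F1 have near-identical pseudogene copies, so their counts are uncertain.

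Neural progenitor genes, among which B1 factors are best known, were called lower more often than higher. Of 18 listed, 14 were tested, 9 fell, 2 rose and 3 were not called, beside 13.4% lower and 14.8% higher among all tested genes, with a median log2 fold change of -0.24. NES, which encodes the intermediate filament nestin, fell from 780 ± 7.49 to 517 ± 5.60 CPM (± SD, n = 3, with a log2 fold change -0.59, edgeR adjusted p = 1.84e-10). The homeobox genes NKX6-1 and LHX2 and the hedgehog mediator gene GLI3 had log2 fold changes of -0.67, -0.51 and -0.33 (edgeR adjusted p = 2.30e-07, 9.44e-07 and 1.07e-06). PAX6, listed with the partners, was at 4.63 and 4.58 CPM and was not called (edgeR adjusted p = 0.941).

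Genes of neuronal differentiation, which SOX21 is known to favour and B1 factors to hold back, were mostly near absent. Of 14 listed, 11 stayed under 1 CPM in all libraries and 3 were tested. Of these, 2 were higher and 1 lower, where 14.8% of all tested genes were called higher and 13.4% lower. The median log2 fold change of 0.74 is the value of TUBB3 alone, so no direction is read for the list. DLL3, a Notch ligand, rose from 0.978 ± 0.155 to 3.57 ± 0.331 CPM and TUBB3, a neuronal tubulin, from 28.9 ± 3.59 to 48.5 ± 1.42 CPM (± SD of 3 libraries; edgeR adjusted p = 4.74e-07 and 8.23e-06). MAP2, a microtubule protein of dendrites, fell from 131.6 ± 10.7 to 69.9 ± 1.59 CPM (log2 fold change -0.91, edgeR adjusted p = 2.73e-09).

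Genes with the most similar pattern were ranked by the Euclidean distance of their centred log2 values over the 6 libraries. These values were the log2 of CPM with 0.5 added, and 13851 genes with a mean of at least 1 were ranked. Closest to SOX2 were JAKMIP2-AS1 (distance 0.228), the glutamate transporter gene SLC1A2 (0.315) and the serotonin receptor gene HTR1D (0.353). Closest to SOX21 were HTR1D (0.288), JAKMIP2-AS1 (0.409) and SOX2 itself (0.436). SOX2 was the nearest gene to SOX21-AS1 (0.403), followed by JAKMIP2-AS1 (0.458) and SLC1A2 (0.469). Near SOX3 were TTYH1 (0.125), IFI30 (0.145) and TMC7 (0.162), with log2 fold changes of -0.27, -0.27 and -0.24, of which that of TTYH1 was called (edgeR adjusted p = 0.0136). With 6 libraries in 2 groups these distances mostly measure the size of the group difference on this scale, and they are given as a description. The added 0.5 makes that difference smaller for genes at low CPM, such as SOX21-AS1 with its log2 fold change of -3.07. Its part in the ranks was not tested.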

How the data were processed

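Gene expression was measured by mRNA sequencing of 6 PA1 libraries, prepared with a KAPA mRNA HyperPrep kit per the labels' protocols. The deposited table holds raw counts per gene symbol, whole numbers in 1 column per library, per the file headers. The submitters' processing notes name bcl2fastq 2.20.0, STAR 2.7.3a, Salmon 0.14.1, DESeq2 1.28.1 and build GRCh38.p13, without roles; which tool counted, and whether strand was used, is not given in the sources used here. If whole numbers are rounded estimates, values of near-identical genes rest on the estimator.

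Tests ran in R 4.3.3 (DESeq2 1.42.0, edgeR 4.0.16, limma 3.58.1), the rest in Python 3.11.15. After filterByExpr (minimum count 10) and TMM scaling, group was tested with edgeR's quasi-likelihood F-test (robust), Benjamini-Hochberg adjusted over 17592 genes, threshold 0.05. Standard errors were derived from the F statistic. Ratios within libraries had 0.5 added to each count for the test. Replicate pairs differed by 2.77 to 5.91 chi-square per degree of freedom, above counting noise. Simulated data with 200 changed genes among 17592 gave recovery of 52% at 1.25-fold, 68% at 1.5-fold and 86% at 2-fold. The changed genes were drawn from all expression levels and were far fewer than the 4964 called here. These rates therefore do not carry over to members with few counts. GENCODE 29 and RefSeq gave gene models, sequences and neighbours; 6 of the 7 members matched a RefSeq promoter window.

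The members and lists were chosen with earlier results of these data known. The genes named are the members, the 3 nearest coding genes on each side of SOX2, SOX1, SOX14 and SOX21 (those of SOX3 are not reported here), from each list the 4 called genes with the smallest p-values, or fewer, and the 3 genes most like a member in pattern; DNAJC19 as an overlap, POU5F1, PAX6, the markers and 3 further non-coding neighbours were named after their values were seen. Alternatives were 2 other scalings, 2 other filters, DESeq2, limma-voom, each library left out, a replicate block, other length scales and another added count.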

Additional observations from a re-analysis of the deposited data

How the results depend on the processing

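Of the members, SOX2, SOX2-OT and SOX21 kept their direction and call under all 13 alternatives, with log2 fold changes from -2.32 to -2.25, -1.17 to -0.95 and -3.11 to -2.98. SOX21-AS1 did so under 12, from -3.41 to -2.85, and the filter asking 10 counts in every library removed it. The values of SOX21-AS1 are a description, because it passed the main filter through its control libraries. SOX3 lost its call under 6 of 13: DESeq2's Wald test (-0.33), limma-voom (-0.33) and 4 of the 6 fits without 1 library (-0.36 to -0.20 in those 4; -0.42 to -0.20 over all 6); the cause was not tested. The log2 ratio of mean CPM of SOX14 ranged from -1.58 to -0.72 without 1 library. The log2 ratio of SOX21-AS1 to SOX21 ranged from -0.34 to 0.13, reversing without SOX2 siRNA replicate 3 (0.13), the library with 9 SOX21-AS1 counts. The 3 other ratios kept their direction, and 22.0% to 23.3% of the summed B1 level remained under its 8 alternatives. Same-numbered libraries did not deviate together (r = 0.110, -0.00590 and 0.00169 across genes). A replicate block gave 5177 calls over all genes in place of 4964, and the log2 fold changes were -2.28 for SOX2, -1.08 for SOX2-OT, -0.32 for SOX3 (edgeR adjusted p = 0.0325), -3.03 for SOX21 and -3.09 for SOX21-AS1, so the block changed no call of a member. Calls over all genes ranged from 3760 to 5212. Depth limits SOX14 and SOX1.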

Other observations

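Further non-coding genes beside SOX B genes, 3 in number, were looked up after their values were seen. LINC00391, which lies 1.12 kb from SOX21, had 12, 13 and 14 counts in control and 0, 2 and 5 in SOX2 siRNA libraries. It passed the filter on low counts only through its control libraries, so these counts are given as a description. LINC01210, at 5.58 kb from SOX14, had 6, 8 and 3 counts in control and 0, 1 and 0 in SOX2 siRNA libraries. It was too low to be tested, and its summed counts gave 0.195 CPM (95% exact Poisson interval 0.114 to 0.313) against 0.0108 CPM (2.74e-04 to 0.0603). These intervals cover counting error only and not the spread between libraries, so they are a description. LINC00632, at 205 kb from SOX3, had 722, 568 and 569 counts in control and 582, 610 and 526 in SOX2 siRNA libraries, a log2 fold change of -0.20 (edgeR adjusted p = 0.0319).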
